A study of Mus musculus with 908 samples.

Results

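The cells described here are tumour keratinocytes from mouse skin squamous cell carcinoma, sorted before therapy as integrin α6-positive and CD44-negative with both sets chosen by the measured level of 1 transcript, Cd74, which encodes the invariant chain of MHC class II. The gate filled the 96 wells of 1 plate. A library was used if 2000 or more genes reached 1 TPM, which 91 of these wells did. TPM is a length-normalised share of the transcripts in a library. Of the 91 cells, 13 had Cd74 at 10 TPM or more and are called Cd74-positive, 67 had Cd74 under 1 TPM and are called Cd74-negative, and 11 lay in between and were left out of the comparison. The 2 sets together are 80 cells of the 696 usable libraries in a series of 908. Because Cd74 itself chose the cells, and because 1 plate with no animal named is 1 sample, every difference between the sets is given as a description of these cells. No p-value was computed.

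By their strain name, TRE-HrasG12V;SBE-mCherry-PGK-rtTA3, the mice carried an inducible activated Hras transgene and mCherry under SMAD binding elements, a readout of TGF-β signalling. They were of mixed sex and aged P60-P90. The sort was on surface CD44, and the Cd44 transcript was detected in 13 of 13 Cd74-positive and 67 of 67 Cd74-negative cells, at 101.4 and 141.4 TPM on average, so the cells did not lack the transcript and CD44-negative is used here as the name of the gate. Both sets were sorted as negative for mCherry and for CD34 as well as for CD44, and like all other sorted groups they lacked surface CD45, CD31, CD117 and CD140a, which remove blood, vessel, mast and melanocytic, and fibroblast lineages. Before adoptive cell transfer, an infusion of immune cells (ACT), the other groups set beside them below were reporter-positive cells (α6+, mCherry+, CD34+, CD44+), CD44+ reporter-negative cells (α6+, mCherry-, CD34-) and α6-negative cells. The cells after ACT were mCherry+ tumour cells of another strain, TRE-OVA;TRE-HrasG12V:PGK-rtTA3P2AmCherry, which also carries an inducible ovalbumin antigen. The labels name no animal, so the number of tumours behind the plate is unknown.

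MHC class II molecules are pairs of an α and a β chain that show peptides to CD4 T cells. Cd74 holds the new pair together and blocks its groove until H2-DM exchanges a fragment of Cd74 for a peptide. Dendritic cells, B cells and macrophages make class II all the time, while most epithelial cells, keratinocytes included, make it when interferon-γ induces Ciita, the coactivator that gathers on the W, X and Y boxes of class II promoters.

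The class II genes H2-Aa, H2-Eb1 and H2-DMb1 had higher means in Cd74-positive cells, and H2-Ob was listed at 0 in both sets. The stretch of the promoter that was searched for these boxes is shown for each of them. The sequences come from RefSeq (GRCm38.p6) and run from 140 to 21 bases before the annotated start, in the direction of the gene. Capitals mark the Y box core TGATTGG, the X box core TAGNAAC and the CRE-like motif TGACGTCA, which does not overlap the others. H2-Aa lies at chr17:34287844-34287963 (minus strand), H2-Eb1 at chr17:34305727-34305846, H2-DMb1 at chr17:34153051-34153170 and H2-Ob at chr17:34238765-34238884 (all plus strand).
H2-Aa: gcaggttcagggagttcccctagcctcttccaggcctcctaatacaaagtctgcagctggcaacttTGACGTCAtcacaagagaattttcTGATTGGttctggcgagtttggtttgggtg
H2-Eb1: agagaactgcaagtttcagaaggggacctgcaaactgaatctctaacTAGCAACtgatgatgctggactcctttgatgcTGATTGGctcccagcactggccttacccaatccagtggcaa
H2-DMb1: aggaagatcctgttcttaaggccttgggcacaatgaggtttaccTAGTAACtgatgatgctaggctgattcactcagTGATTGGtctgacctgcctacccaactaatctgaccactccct
H2-Ob: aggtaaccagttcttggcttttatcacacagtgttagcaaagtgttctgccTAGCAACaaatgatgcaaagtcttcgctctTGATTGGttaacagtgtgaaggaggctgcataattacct

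Of the 10 class II chain genes listed, 8 had promoter windows of 250 bases before and 50 after the start. The Y box core was found in 7 of these 8 genes, in H2-Aa at 50 bases before the start, in H2-Eb1 at 61, in H2-DMb1 at 63 and in H2-Ob at 59. The X box core lay at 93 bases before the start in H2-Eb1, at 96 in H2-DMb1 and at 89 in H2-Ob, and in H2-Eb2 it lay at 11, downstream of its Y box core. H2-Aa held the CRE-like motif at 74 bases before its start, and the windows of H2-DMa held none of these motifs. Searched on both strands, the Y box core occurred in 7.82% of 32851 mouse promoter windows, the X box core in 11.4% and the CRE-like motif in 1.79%. H2-Ob holds both the X and the Y box core, as H2-Eb1 and H2-DMb1 do, and was listed at 0 in all 80 cells. H2-Ab1 and Ciita had no entry.

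All 13 Cd74-positive cells and all 67 Cd74-negative cells scored highest for keratinocyte markers among the cell type lists, and in both sets all 14 keratinocyte markers were present. Ptprc, which encodes CD45, was listed at 0 in all cells, as were the T-cell genes Cd3d, Cd3e and Trac. Of the 12 T- and NK-cell markers, 3 were above 0. Trbc2, a T-cell receptor constant region, averaged 17.3 TPM in Cd74-positive cells (7 of 13) and 37.4 TPM in Cd74-negative cells (57 of 67), and Cd8a and Cd8b1 were each detected in 1 Cd74-positive cell and in 1 and 5 Cd74-negative cells. Among the 12 general immune markers, 3 were above 0 in Cd74-positive cells and 9 in Cd74-negative cells, and their summed level ran from 0 to 284.04 TPM (median 90.6) in Cd74-positive cells and from 0 to 177.3 TPM (median 24.3) in Cd74-negative cells. Arhgdib, a gene abundant in leukocytes, made up nearly all of it, with 85.9 and 37.04 TPM on average. In 0 cells of either set were 3 or more of the general immune markers detected. Cd207 (langerin), the defining gene of Langerhans cells, was found in 1 cell, the Cd74-positive cell of well F7, at 12.9 TPM. A part of other cells in the class II signal of that well was not tested.

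Libraries held 4993 to 8027 genes in Cd74-positive cells (median 6202) and 2903 to 8297 in Cd74-negative cells (median 6970). ERCC spike-ins took a median of 0.779% of TPM in Cd74-positive cells and 0.412% in Cd74-negative cells, and 8 ribosomal rows took 72.2% and 72.9%. TPM keeps no read depth, so intervals below cover the counting of cells only.

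The plate divides by sex-linked transcripts into 2 blocks of rows. With Xist or the sum of 4 Y-linked genes called at 1 TPM, all kept cells of rows E to H but 1 had Y-linked transcripts, and all of rows A to D but 3 had Xist without them. Among Cd74-positive cells 6 had Xist, 6 had Y-linked transcripts and 1 (well A3) had both, and among Cd74-negative cells 33 had Xist, 31 had Y-linked transcripts and 3 had neither. Row A held 5 of the 13 Cd74-positive cells among its 11 kept cells, whereas rows C and H held 0. The wells A3 and A4, A8 to A10, and G1 and G2 are neighbours. Position, sex and animal cannot be told apart, so list medians are also given within each block.

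**Figure D1:**
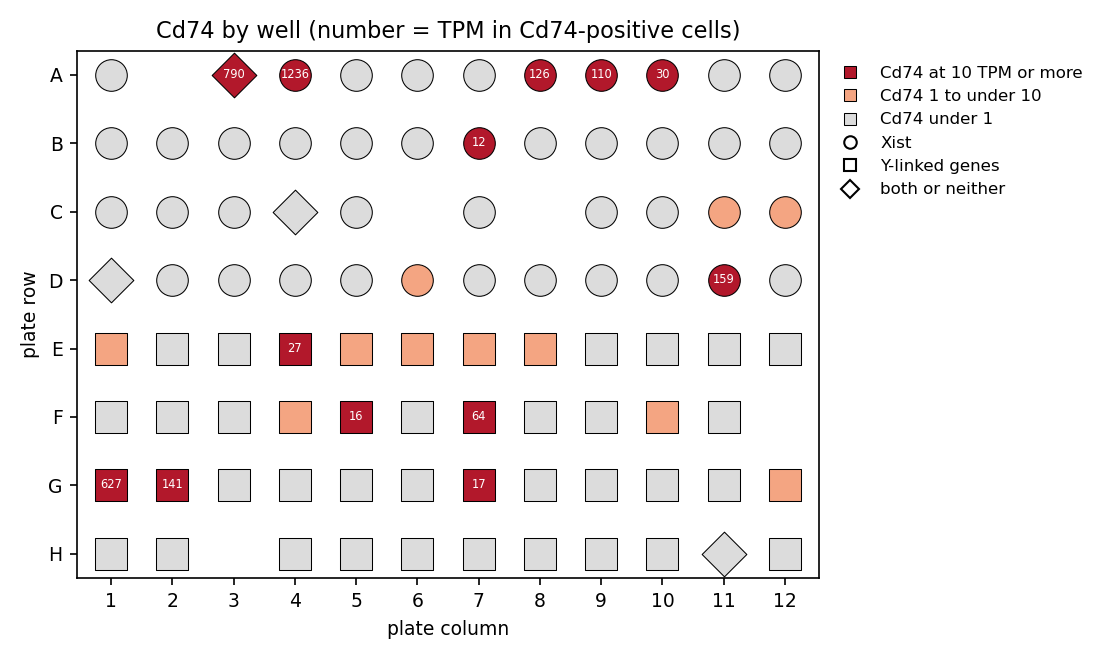
Position of the 91 kept cells on the sort plate (rows A to H, columns 1 to 12). Fill gives the Cd74 class, numbers give Cd74 in TPM in the 13 Cd74-positive cells, and marker shape gives sex-linked transcripts. Row A holds 5 Cd74-positive cells, and circles (Xist) fill rows A to D while squares (Y-linked genes) fill rows E to H.

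Cd74 (chr18:60803848-60812652, mm10, GENCODE M21) was high in a few cells and graded down to the limit. Its level was 1236 TPM in well A4, 790.2 in A3 and 627 in G1. Another 4 cells, in wells D11, G2, A8 and A9, had 159.2, 141.1, 125.6 and 109.8 TPM, and the remaining 6 had 63.9 TPM in F7, 30.1 in A10, 26.8 in E4, 17.04 in G7, 16.4 in F5 and 11.7 in B7. The cells just under the limit had 9.30, 8.25 and 8.22 TPM (wells E1, C12 and F10), and the Cd74-negative cells were all listed at 0.

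The genes for the classical class II chains were detected mostly in the same cells. H2-Ab1, the I-A β chain (chr17:34257689-34269419), was highest in A4, with 314.04 TPM in G1, 286.97 in A3, 14.4 in D11, 57.1 in G2, 97.7 in A8, 174.8 in A9, 17.5 in F7 and 133.5 in B7, and was listed at 0 in A10, E4, G7 and F5. In Cd74-negative cells its lowest and median values were 0 and its highest was 83.9 TPM. It was detected in 9 of 13 Cd74-positive cells (69.2%, exact 95% interval 38.6 to 90.9) and in 11 of 67 Cd74-negative cells (16.4%, 8.49 to 27.5). The sets overlap, since 4 Cd74-positive cells had no H2-Ab1 and 11 Cd74-negative cells had some.

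H2-Aa, the partner α chain (chr17:34282744-34287823), averaged 43.1 TPM in Cd74-positive cells (0, 7.45 and 249.6 for lowest, median and highest) and 0.534 TPM in Cd74-negative cells (0, 0 and 19.7). H2-Eb1, the I-E β chain (chr17:34305867-34316674), averaged 61.1 TPM in Cd74-positive cells (0, 18.4 and 227.8) and 1.62 TPM in Cd74-negative cells (0, 0 and 68.6). H2-Aa was detected in 9 of 13 and 4 of 67 cells, and H2-Eb1 in 10 of 13 and 6 of 67. All of H2-Aa, H2-Ab1 and H2-Eb1 were detected together in 8 of 13 Cd74-positive cells (61.5%, 31.6 to 86.1) and in 2 of 67 Cd74-negative cells (2.99%, 0.364 to 10.4). Thus both sets contain exceptions to a strict class II-positive and class II-negative division.

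H2-DMb1 and H2-DMa encode the β and α chains of the peptide exchanger H2-DM. H2-DMb1 averaged 14.8 TPM in Cd74-positive cells (0, 8.66 and 61.6; 7 cells) and 0.548 TPM in Cd74-negative cells (0, 0 and 12.8; 4 cells). H2-DMa averaged 6.67 TPM in Cd74-positive cells (highest 32.4; 6 cells) and 0.620 TPM in Cd74-negative cells (highest 12.9; 7 cells). H2-Oa and H2-Ob, the chains of the H2-DM inhibitor H2-O that B cells use, and H2-Eb2 were listed at 0 in all cells, and H2-DMb2 was detected in 1 Cd74-negative cell.

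Fold changes below are log2 ratios of mean TPM + 1, Cd74-positive over Cd74-negative, for the 11795 genes with a mean of at least 1 TPM in either set. The log2 fold was 4.96 for H2-Ab1, 4.85 for H2-Aa, 4.57 for H2-Eb1, 3.35 for H2-DMb1 and 2.24 for H2-DMa. So all 5 tested class II chain genes other than Cd74 were at least 2-fold higher, in a comparison where 11.2% of all genes were at least 2-fold higher and 8.99% at least 2-fold lower in Cd74-positive cells. H2-Aa, H2-DMb1 and H2-DMa passed the filter through the Cd74-positive set alone, as did 1145 genes over the whole table, so their place among the higher genes follows in part from the filter. The same filter was applied within each block and each other group below. The median log2 fold of the 5 was 4.57, and that of all genes was 0.06. Wells A3, A4 and G1, which lead in Cd74, hold much of this difference, and without these 3 cells the median was 3.06.

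**Figure D2:**
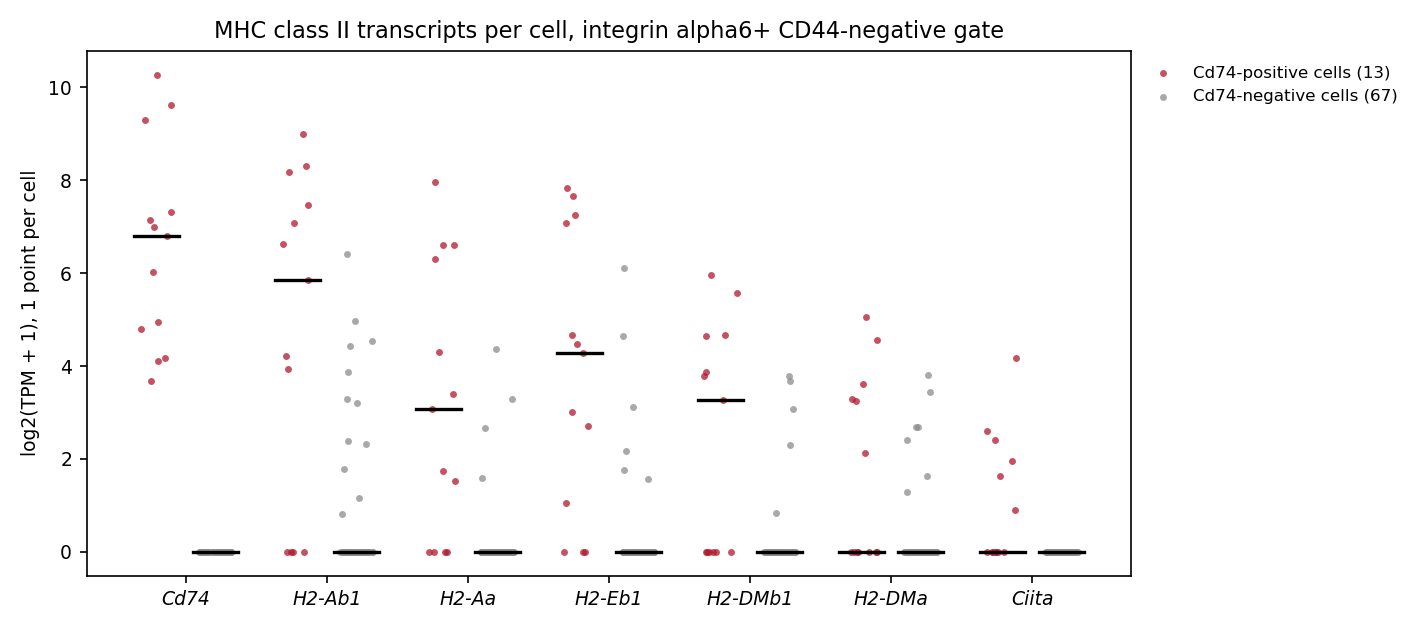
Class II transcripts and Ciita in log2(TPM + 1), 1 point per cell, with the 13 Cd74-positive cells left of the 67 Cd74-negative cells for each gene and a black bar at the median. H2-Ab1, H2-Aa and H2-Eb1 were detected in 9, 9 and 10 of the Cd74-positive cells, and Ciita lay above 0 in Cd74-positive cells only among these 80 cells.

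Ciita, the class II transactivator (chr16:10480059-10528418), was low in every cell. It had 17.1 TPM in A4, 5.07 in A9, 4.27 in G1, 2.86 in A8 and 2.10 in A3, so the 5 cells in which it was detected all lay among the 7 highest in Cd74. It was detected in 5 of 13 Cd74-positive cells (38.5%, 13.9 to 68.4) and was listed at 0 in all 67 Cd74-negative cells, which at a count of 0 allows a share of up to 4.48% by a limit of 3 counts and 5.36% by the exact interval. Rfx5, a DNA-binding part of the complex on the X box, averaged 8.92 TPM in Cd74-positive cells and 4.21 TPM in Cd74-negative cells (6 of 13 and 17 of 67 cells). The other members of that complex and of the Y box factor NF-Y had log2 folds between -0.70 (Rfxank) and 0.01 (Rfxap), with Nfyc at 61.5 and 72.7 TPM. Of the 8 regulators, Ciita alone was at least 2-fold higher and 0 were at least 2-fold lower. Ciita passed the filter through the Cd74-positive set alone, where it was bound to be the higher one. Of the 6 regulators that reached 1 TPM in both sets 0 were higher and 0 lower.

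The proteases and inhibitors that process Cd74 and antigens differed little between the sets. Of 8 tested genes 0 were at least 2-fold apart, with a median log2 fold of -0.10. Cst3 (cystatin C), an inhibitor of cathepsins, averaged 276.1 TPM in Cd74-positive cells (76.3, 296.8 and 495.3 for lowest, median and highest) and 158.4 TPM in Cd74-negative cells (42.04, 137.6 and 380.4). Ctsl, a cathepsin that trims Cd74, averaged 15.4 and 21.97 TPM, and Ctsd averaged 127.8 and 176.4 TPM.

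Class II transcripts were also found outside the Cd74-positive set. The Cd74-negative cell H8 had 83.9 TPM of H2-Ab1, 68.6 of H2-Eb1 and 8.79 of H2-Aa with Cd74 at 0. Of the next 4 Cd74-negative cells in H2-Ab1, D10 (30.3 TPM), E3 (22.2) and A11 (13.6), had H2-Aa and H2-Eb1 at 0, and H12 had 20.7 TPM of H2-Ab1 with 19.7 of H2-Aa. Dropout of low transcripts and free RNA were not tested as sources of these values.

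Genes of the class I pathway, which shows peptides to CD8 T cells, were higher in Cd74-positive cells than in Cd74-negative cells in most cases. Of 26 tested genes 15 were at least 2-fold higher and 0 lower, with a median log2 fold of 1.04, and of the 23 that reached 1 TPM in both sets 13 were higher. Scored per cell as the mean log2(TPM + 1) of the list, 11 of 13 Cd74-positive cells lay above the median of the Cd74-negative cells, the exceptions being E4 and G7.

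Among the genes named from this list were nonclassical class I genes of the H2-Q cluster. H2-Q7 averaged 139.02 TPM in Cd74-positive cells (0, 149.1 and 341.9 for lowest, median and highest) and 20.9 TPM in Cd74-negative cells (0, 0.490 and 203.7), a log2 fold of 2.68. H2-Q6 averaged 45.4 and 4.59 TPM (log2 fold 3.05) and H2-Q4 53.03 and 10.04 TPM (2.29). H2-Q5, which is annotated as a polymorphic pseudogene and stands outside the list, averaged 40.5 and 3.16 TPM (3.32). These copies are nearly identical in sequence and reads may have been shared among them. Psmb8, the immunoproteasome subunit that trims peptides for class I, averaged 74.7 TPM in Cd74-positive cells (0, 47.3 and 280.9) and 16.9 TPM in Cd74-negative cells (0, 0 and 162.1), a log2 fold of 2.08.

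Among class I genes outside the rule for naming, picked after their values were seen, the peptide transporter Tap1 averaged 44.7 TPM in Cd74-positive cells and 10.7 TPM in Cd74-negative cells. The heavy chain H2-K1 averaged 488.6 and 197.3 TPM, and the light chain B2m averaged 533.1 and 239.5 TPM. Nlrc5, the class I counterpart of Ciita, averaged 14.8 and 6.62 TPM, a log2 fold of 1.05. These genes were detected in most cells of both sets, unlike the class II genes. B2m was found in 13 of 13 and 66 of 67 cells.

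Interferon-response genes showed the same direction, with 27 of 40 tested genes at least 2-fold higher, 0 lower and a median of 1.28 on the log2 scale. Of the 40, 9 passed the filter through the Cd74-positive set alone, where they were bound to be the higher ones, and of the 31 that reached 1 TPM in both sets 19 were at least 2-fold higher and 0 lower. Ifi27l2a, which interferon induces and whose product acts at mitochondria, averaged 368.8 TPM in Cd74-positive cells (0, 115.3 and 1234 for lowest, median and highest) and 24.6 TPM in Cd74-negative cells (0, 0 and 526.4). It was detected in 9 of 13 and 14 of 67 cells, and the 6 highest Cd74-positive values were in 5 cells of row A and in well D11. Xaf1, an interferon-induced proapoptotic gene, averaged 23.6 and 2.31 TPM, and Igtp, an interferon-γ-induced GTPase, 15.5 and 1.96 TPM.

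The interferon genes did not all follow Cd74 from cell to cell. Well F5 had 499.6 TPM of Cxcl10, 325.97 of Cxcl9 and 382.2 of the GTPase gene Tgtp1, together with 341.9 TPM of H2-Q7 and 280.9 of Psmb8, while its Cd74 was 16.4 TPM and its H2-Ab1, H2-Aa and H2-Eb1 were listed at 0. Cxcl10 and Tgtp1 were detected in no other Cd74-positive cell. Without the highest cell of each set their log2 folds were -0.21 for Cxcl10, -0.47 for Tgtp1 and -0.02 for Cxcl9, so the 4.90, 4.12 and 3.99 found with all cells rest on that well.

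Of 17 interferon signalling genes 5 were at least 2-fold higher and 1 lower. Irf9, an interferon-activated transcription factor, averaged 22.6 TPM in Cd74-positive cells and 7.998 TPM in Cd74-negative cells (log2 fold 1.39), and the type I receptor chain Ifnar2 averaged 16.4 and 6.95 TPM (1.13). The other chain, Ifnar1, was lower, at 3.73 TPM in Cd74-positive cells and 10.1 TPM in Cd74-negative cells (log2 fold -1.23), detected in 6 of 13 and 53 of 67 cells.

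Among chemokines and cytokines, 6 of 18 tested genes were at least 2-fold higher and 4 lower, where 11.2% of all genes were higher and 8.99% lower. Of the 10 that reached 1 TPM in both sets 1 was higher and 2 were lower. In the Xist block 2 of 14 were higher and 6 lower (median log2 fold -0.41), where 17.2% of all genes were higher and 21% lower. In the Y-linked block 10 of 17 were higher and 1 lower (median 1.34), where 11.9% of all genes were higher and 12.8% lower. Ccl27a, a chemokine of keratinocytes that draws T cells to skin, averaged 268.3 TPM in Cd74-positive cells (0, 139.9 and 1162 for lowest, median and highest; 11 cells) and 39.8 TPM in Cd74-negative cells (0, 0 and 778; 26 cells). Its log2 fold was 2.72, and 2.72 again without the highest cell of each set. The predicted gene Gm13306, on the same chromosome 4, averaged 257.995 and 14.9 TPM, and whether reads were shared between it and Ccl27a is not known. Il18, an interferon-γ-inducing cytokine, averaged 3.19 and 10.9 TPM.

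Of 14 co-signalling genes 2 were at least 2-fold higher and 4 lower, where 11.2% of all genes were higher and 8.99% lower. Of the 13 that reached 1 TPM in both sets 2 were higher and 3 lower. Lgals9, the galectin that binds TIM-3, averaged 83.1 TPM in Cd74-positive cells and 25.2 TPM in Cd74-negative cells (log2 fold 1.68). Cd200, an inhibitory ligand that also marks hair follicle stem cells, averaged 20.3 and 1.03 TPM but was detected in only 4 of 13 and 2 of 67 cells. Cd47, the signal against engulfment, averaged 35.2 and 18.8 TPM, and Lgals1, another galectin, 1.73 and 12.3 TPM.

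**Figure D3:**
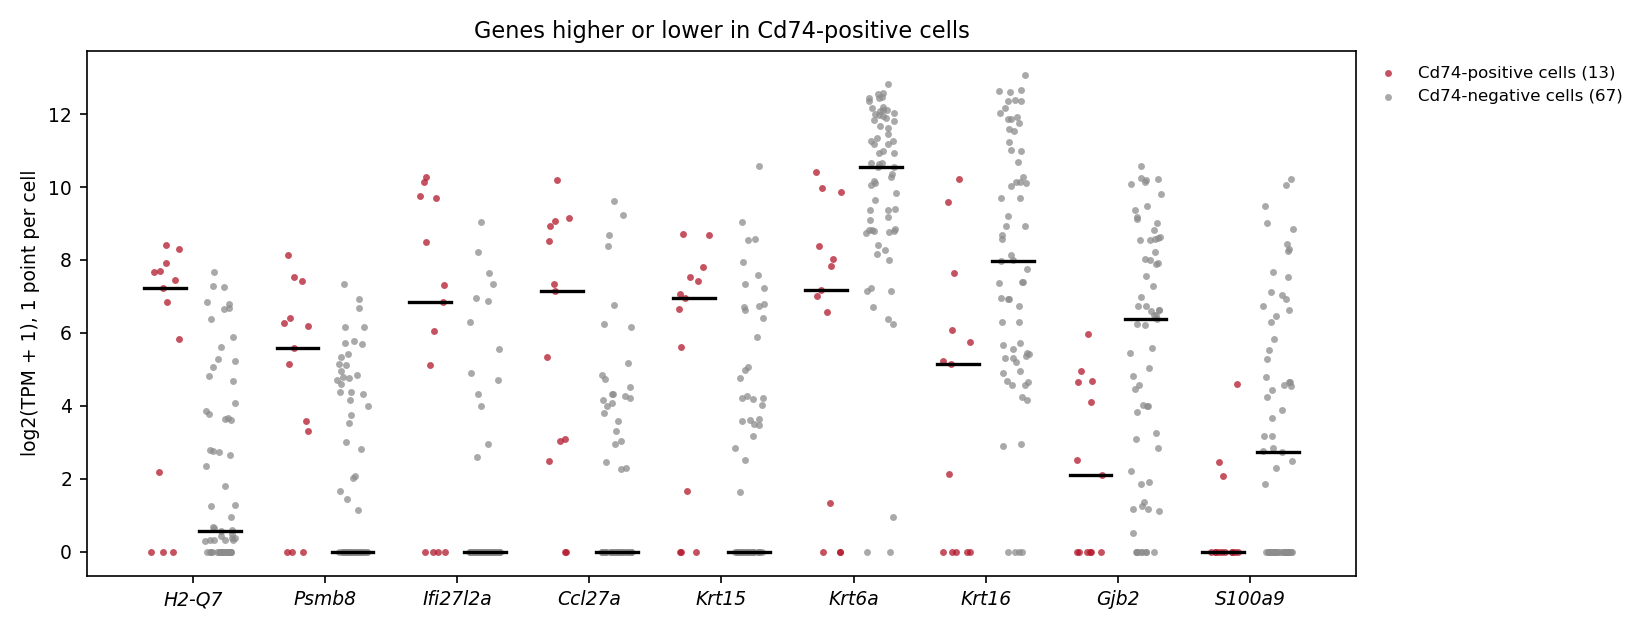
Levels of 9 genes in log2(TPM + 1), 1 point per cell, Cd74-positive cells (13) left of Cd74-negative cells (67), with a black bar at the median. The medians of H2-Q7, Psmb8, Ifi27l2a, Ccl27a and Krt15 lie higher in Cd74-positive cells, those of Krt6a, Krt16, Gjb2 and S100a9 lie lower, and the points of the sets overlap for every gene.

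Transcripts of injury-activated keratinocytes ran the other way. Keratins 6 and 16 and the calcium-binding alarmins S100a8 and S100a9 are scarce in resting epidermis and abundant in wounds and tumours. Of 14 tested genes of the stress keratin and alarmin list 9 were at least 2-fold lower in Cd74-positive cells than in Cd74-negative cells and 0 higher, with a median log2 fold of -1.18. The filter was passed by 1 of them through the Cd74-negative set alone, and of the 13 that reached 1 TPM in both sets 8 were lower and 0 higher. Per cell, 3 of 13 Cd74-positive cells (E4, F7 and G7) lay above the median score of the Cd74-negative cells.

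Krt6a averaged 346.6 TPM in Cd74-positive cells (0, 144.9 and 1368 for lowest, median and highest) and 2119 TPM in Cd74-negative cells (0, 1503 and 7317). Krt16 averaged 180.9 TPM in Cd74-positive cells (0, 34.5 and 1195) and 1397 TPM in Cd74-negative cells (0, 251.3 and 8670). S100a9 averaged 2.38 TPM in Cd74-positive cells (0, 0 and 23.2; 3 cells) and 96.1 TPM in Cd74-negative cells (0, 5.72 and 1203; 37 cells). The log2 folds were -2.61 for Krt6a, -2.94 for Krt16 and -4.85 for S100a9, and the ranges of the sets overlap for each of these genes.

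Other genes among the lowest over the whole table, named by the rule given below, belong to several lists or to none. Gjb2 (connexin 26), a gap junction protein of activated epidermis, averaged 12.7 TPM in Cd74-positive cells (0, 3.29 and 61.6) and 246.8 TPM in Cd74-negative cells (0, 81.7 and 1514), a log2 fold of -4.18. Has3, a hyaluronan synthase, averaged 4.996 and 53.5 TPM, and the secreted protease Klk10 10.8 and 57.7 TPM. The cornified envelope precursor Sprr1b averaged 20.5 and 139.6 TPM. Sparc, a matrix glycoprotein, averaged 5.77 and 37.6 TPM, the basement membrane gene Tinagl1 3.81 and 22.2 TPM, and Igfbp2, an insulin-like growth factor binding protein, 1.81 and 22.6 TPM.

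This difference was larger among cells with Xist than among cells with Y-linked transcripts. Within the Xist block, where 17.2% of genes were at least 2-fold higher and 21% lower in its 6 Cd74-positive cells, 11 of 12 stress and alarmin genes were lower and the median log2 fold was -4.81. In the Y-linked block, where 11.9% of genes were higher and 12.8% lower, 4 of 14 were lower, 1 was higher and the median was -0.68. Krt16 averaged 6.70 TPM in Cd74-positive and 1704 TPM in Cd74-negative cells of the Xist block, against 385.2 and 892 TPM in those of the Y-linked block. Whether the blocks differ beyond their small numbers of cells was not tested.

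Suprabasal genes, which follow a keratinocyte leaving the basal layer, were mixed. Of 22 tested genes 9 were at least 2-fold lower and 3 higher, with a median log2 fold of -0.91, and this median was -2.03 in the Xist block and 0.08 in the Y-linked block. Of the 17 genes that reached 1 TPM in both sets, 4 were lower and 3 higher. Krt10, the first suprabasal keratin, averaged 390.6 TPM in Cd74-positive cells and 68.96 TPM in Cd74-negative cells, but its median was 1.52 TPM and 7.21 TPM. The mean comes from wells F7, G7 and E4, all of the Y-linked block, with 2420, 1773 and 875 TPM, whereas the other 10 Cd74-positive cells had 2.41 TPM or less. In the same wells Krt5, the basal keratin, was 24.2 TPM in F7, 204.1 in G7 and 718 in E4, against a median of 1390 TPM over all Cd74-positive cells and 1949 TPM over Cd74-negative cells. The scores of the class II chains without Cd74 in these wells were 1.36 in F7, 0.17 in E4 and 0 in G7, so the 2 Krt10-high cells E4 and G7 carried Cd74 with almost no other class II transcript.

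Basal-layer genes, which a gate on integrin α6 would hold in both sets, had a median log2 fold of -0.23. Of 21 genes 2 were at least 2-fold higher and 2 lower, near the 11.2% and 8.99% of all genes. Krt14 averaged 4916 and 7744 TPM, and Itga6, the sorted integrin, 34.9 and 47.9 TPM; both were singled out after their values were seen. Krt15, a keratin of quiescent basal and follicle stem cells, averaged 139.7 TPM in Cd74-positive cells (0, 123.99 and 416.3 for lowest, median and highest; 10 cells) and 65.2 TPM in Cd74-negative cells (0, 0 and 1531; 31 cells). Col7a1, the collagen of anchoring fibrils, averaged 28.9 and 65.3 TPM. Aldh3a1, an aldehyde dehydrogenase of surface epithelia, averaged 176.8 TPM in Cd74-positive cells (0, 19.1 and 594) and 11.5 TPM in Cd74-negative cells (0, 0 and 288.4), a log2 fold of 3.83, with its highest values in A3, G1 and A4.

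Hair follicle genes were higher in part of the Cd74-positive cells. Of 16 tested genes 10 were at least 2-fold higher and 3 lower, with a median log2 fold of 1.53. Of these, 12 reached 1 TPM in both sets, with 7 higher and 2 lower, while 3 passed the filter through the Cd74-positive set alone and 1 through the Cd74-negative set alone. Lgr6, a receptor that marks stem cells of the isthmus above the bulge, averaged 18.97 TPM in Cd74-positive cells (0, 0 and 76.6; 6 cells) and 1.58 TPM in Cd74-negative cells (0, 0 and 65.6; 5 cells). Krt79, a keratin of the infundibulum and sebaceous duct, was detected in wells A10, A3 and A4 at 564.8, 119.9 and 20.9 TPM, and averaged 54.3 and 4.42 TPM. All Krt79 detections in Cd74-positive cells were in row A, and without row A the median log2 fold of the follicle list was -0.08. Defb6, a defensin, rests on 1 Cd74-positive cell and 1 Cd74-negative cell.

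Genes of the cell cycle split between the 2 blocks of the plate. In the gate as a whole, 1 of 22 G2/M genes was at least 2-fold higher and 0 lower, and 5 of 22 G1/S genes were higher and 2 lower. Of the 19 G1/S genes that reached 1 TPM in both sets 5 were higher and 0 lower. In the Xist block 20 of 22 G2/M genes were at least 2-fold lower in Cd74-positive cells, with a median log2 fold of -2.72, and in the Y-linked block 20 of 22 were at least 2-fold higher, with a median of 1.59. Cdk1, the mitotic kinase, had 242.6, 180.03 and 177.97 TPM in G2, G7 and F5 and 107.7 TPM in A9, and was listed at 0 in the other 9 Cd74-positive cells. Among Cd74-negative cells it was detected in 24 of 67, at up to 187.5 TPM. Within the Xist block it was detected in 1 of 6 Cd74-positive and 14 of 33 Cd74-negative cells, and within the Y-linked block in 3 of 6 and 10 of 31. Among G1/S genes Gins2, a part of the replicative helicase, averaged 27.8 TPM in Cd74-positive cells (10 cells) and 6.84 TPM in Cd74-negative cells (37 cells), and Ung, which removes uracil from DNA, 21.2 and 4.07 TPM.

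**Figure D4:**
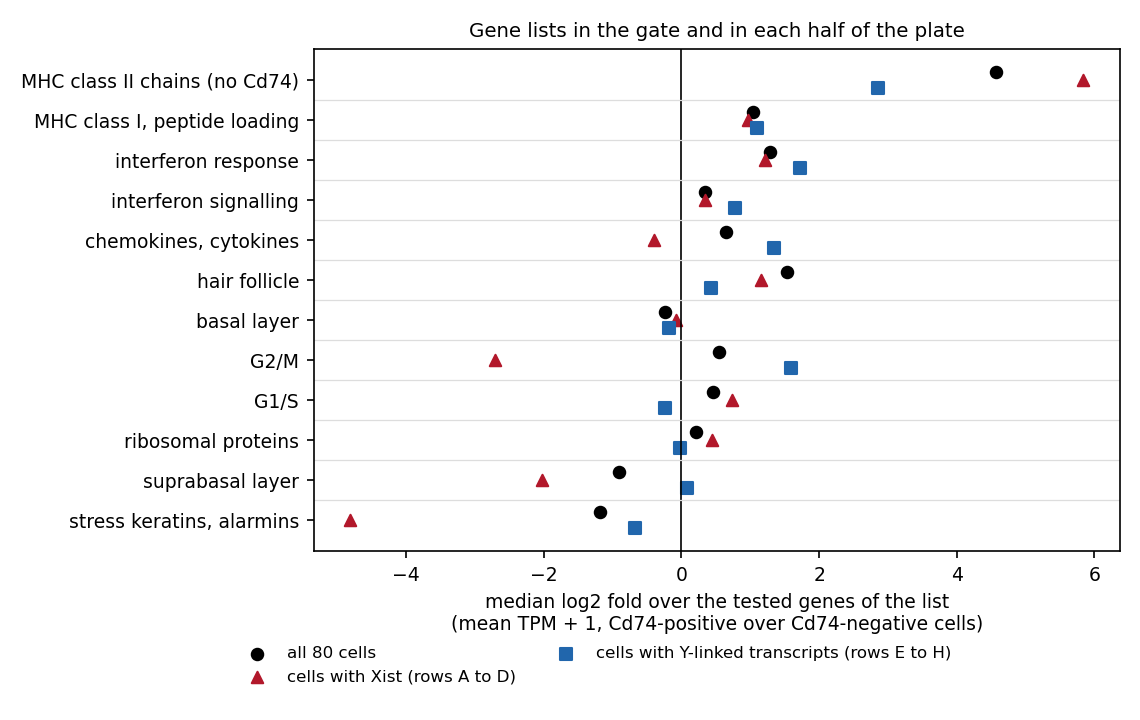
Median log2 fold (mean TPM + 1, Cd74-positive over Cd74-negative cells) for 12 gene lists in all 80 cells and within the Xist and the Y-linked blocks. Class II, class I and interferon lists lie right of 0 in both blocks (class II at 5.84 and 2.86), stress keratins and alarmins lie left of 0 in both, and G2/M genes lie on opposite sides.

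For the remaining lists the pooled values often joined unlike blocks. Hypoxia and glycolysis genes had a median log2 fold of -0.50 with 2 of 20 at least 2-fold lower. The median was -0.54 for p53 targets and cell cycle inhibitors, with 2 of 14 lower. The glutathione and NRF2 list had -0.38 with 3 of 20 lower and 2 higher. Over all genes 8.99% were lower and 11.2% higher. In the Xist block 21% of all genes were lower and 17.2% higher, and in the Y-linked block 12.8% and 11.9%. Among genes that reached 1 TPM in both sets, 1 of 19 was lower in the hypoxia list and 0 of 11 in the p53 list. In the glutathione list 2 of 19 such genes were lower and 2 higher. Pgk1, a glycolytic enzyme, averaged 51.8 TPM in Cd74-positive cells and 102.2 TPM in Cd74-negative cells, and Pgam1 56.6 and 110.6 TPM. Gsto1, a glutathione transferase, averaged 125.05 and 278.7 TPM. SMAD targets had a median of 0.01, with Thbs1 at 18.1 and 39.9 TPM and Id1 at 36.9 and 30.1 TPM. The median was -0.17 for the unfolded protein response and 0.21 for ribosomal proteins. Immediate early genes had a median of -0.08 over all cells, but 12 of 19 were at least 2-fold lower in the Xist block (median -1.37) and 5 of 20 were higher in the Y-linked block (median 0.51). The matrix and protease list had 5 of 16 genes at least 2-fold higher and 5 lower. Of its 12 genes that reached 1 TPM in both sets 3 were higher and 4 lower. This list had 8 of 14 genes lower in the Xist block (median -1.58) and 6 of 17 higher in the Y-linked block (median 0.16). The p53 list had 7 of 12 genes lower in the Xist block (median -1.24) and 3 of 14 lower in the Y-linked block (median -0.08). The medians in the Xist and the Y-linked block were -0.42 and 0.34 for co-signalling genes, 0.73 and -0.24 for G1/S genes, and -0.80 and -0.13 for hypoxia and glycolysis genes.

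The genes that lead the whole table were picked by a rule (at least 20 TPM on average and detected in 40% of the cells of the higher set, with a 2-fold difference of the same sign without the highest cells), which 87 lower genes and more higher genes met. Besides Cd74, H2-Ab1, H2-Aa, H2-Eb1, Ifi27l2a, Aldh3a1, H2-Q5, H2-Q6 and Gm13306, the 15 highest were Pdlim4, Txnip, Postn, Egr2, Tmem45a and Adgrl2. Txnip, a thioredoxin inhibitor that tracks glucose and quiescence, averaged 73.5 TPM in Cd74-positive cells (0, 31.6 and 371.8; 9 cells) and 4.77 TPM in Cd74-negative cells (0, 0 and 99.4; 18 cells). Postn, the matrix protein periostin, averaged 126.1 and 10.4 TPM, with a log2 fold of 3.84 in the Xist block and -0.33 in the Y-linked block. Egr2, an immediate early transcription factor, averaged 46.6 and 3.49 TPM. Tmem45a, a transmembrane protein of keratinocytes, averaged 111.6 and 10.5 TPM, with log2 folds of 2.93 and 4.44 in the Xist and Y-linked blocks.

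The same division by Cd74 was made in cells that had no part in choosing the sets. Cd74 at 10 TPM or more was found in 13 of 91 cells of the CD44-negative α6+ gate (14.3%, exact 95% interval 7.83 to 23.2). It was found in 8 reporter-positive cells (7.69%, 3.38 to 14.6), in 5 of 14 CD44+ reporter-negative cells (35.7%, 12.8 to 64.9), in 1 of 42 α6-negative cells (2.38%, 0.0603 to 12.6) and in 7 cells after transfer (3.52%, 1.43 to 7.11). Repeat libraries of a cell were averaged, and plates labelled after ACT whose libraries repeat cells labelled before it were left out. Keratinocyte markers scored highest in all 8 and 7 Cd74-positive cells of the reporter-positive and after-transfer groups and in 4 of the 5 of the CD44+ group, where the fifth scored highest for fibroblast markers. Of the 9 Cd74-negative CD44+ cells 2 scored highest for pericyte and muscle markers, and values of the CD44+ group include these cells. Ptprc was not detected in any of these Cd74-positive cells. At least 3 of 12 general immune markers were detected in 2 of the 7 Cd74-positive cells after transfer. Among the Cd74-negative cells after transfer, which were far more numerous, 1 cell had as many, so the share was lower there. The counts in Cd74-positive and Cd74-negative cells were 2 of 8 and 11 of 80 in the reporter-positive group. In the CD44+ group they were 0 of 5 and 1 of 9. A part of other cells in the values after transfer given below was not tested.

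The tested class II chain genes had higher means in the Cd74-positive cells of each of these groups. In the reporter-positive group, where 5.63% of genes were at least 2-fold higher and 15.3% lower in Cd74-positive cells, 4 of 5 class II chain genes other than Cd74 were higher, with a median log2 fold of 2.55. Among CD44+ reporter-negative cells, with 24.3% of genes higher and 23.9% lower, all 5 were higher with a median of 5.04. After transfer, with 14.8% higher and 8.38% lower, all 5 were higher with a median of 3.32. These counts follow in part from the filter. H2-Aa, H2-Eb1 and H2-DMa passed it through the Cd74-positive cells alone in each of these groups. So did H2-DMb1 in the reporter-positive group and after transfer. In the CD44+ group H2-DMa was detected in 1 of 5 Cd74-positive and 2 of 9 Cd74-negative cells. H2-Ab1 was detected in 5 of 8 Cd74-positive and 12 of 80 Cd74-negative reporter-positive cells, in 5 of 5 and 3 of 9 CD44+ cells, and in 85.7% (6 cells; 42.1 to 99.6) and 11.5% (21 cells; 7.29 to 17.1) of the cells after transfer. Ciita was detected in 1 of 8 and 0 of 80 reporter-positive cells, in 0 of 5 and 1 of 9 CD44+ cells, and in 42.9% (3 cells; 9.90 to 81.6) and 1.10% (2 cells; 0.133 to 3.91) of the cells after transfer.

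Class I and interferon genes followed in some groups more than in others. Class I genes had medians of 0.59 in reporter-positive cells (5 of 25 at least 2-fold higher, 1 lower), 0.78 in CD44+ cells (10 of 26 higher, 1 lower) and 1.40 after transfer (18 of 25 higher, 0 lower). Interferon-response genes had medians of 0.94 (16 of 34 higher, 2 lower), 0.05 (13 of 47 higher, 11 lower) and 1.76 (29 of 36 higher, 0 lower) in the same order, where all genes had medians of -0.20, 0.01 and 0.28. H2-Q7 averaged 228.9 TPM in the 7 Cd74-positive and 35.3 TPM in the Cd74-negative cells after transfer, and Lgals9 75.8 and 11.8 TPM.

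Stress keratins and alarmins were lower in Cd74-positive cells of the reporter-positive group (8 of 16 at least 2-fold lower, median -1.16) and after transfer (13 of 16, median -1.49), and less so among CD44+ cells (5 of 13 lower, 1 higher, median -0.57). Krt16 averaged 851 TPM in Cd74-positive and 2851 TPM in Cd74-negative cells after transfer, and 1102 and 2121 TPM in the reporter-positive group. Gjb2 averaged 51.7 and 460.6 TPM after transfer, 224.2 and 359.2 TPM in the reporter-positive group, and 58.5 and 55.7 TPM in the CD44+ group. In the reporter-positive group, the CD44+ group and after transfer, the log2 folds of Krt6a were -0.18, -0.38 and -0.80. Those of Has3 were 0.13, 0.84 and 0.17 in the same order, so Has3 was not lower in any of them.

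Some other genes of the gate kept their direction in all of these groups and some did not. Aldh3a1 averaged 99.2 TPM in Cd74-positive and 6.004 TPM in Cd74-negative CD44+ cells, and was listed at 0 in the Cd74-positive cells of both other groups. Krt15 averaged 91.4 and 10.8 TPM in the CD44+ group and 0.606 and 1.54 TPM in the reporter-positive group, and was listed at 0 in Cd74-positive cells after transfer, against 40.1 TPM in Cd74-negative ones. Ifi27l2a was listed at 0 in the 8 Cd74-positive reporter-positive cells, and averaged 212.1 and 391.4 TPM in the CD44+ group and 5.27 and 1.03 TPM after transfer. Ccl27a averaged 33.03 and 8.42 TPM after transfer and 669 and 68.9 TPM in the CD44+ group, but 18.1 and 21.7 TPM in the reporter-positive group. Lgr6 had a higher mean in Cd74-positive cells of all of these groups. It averaged 28.6 and 8.63 TPM in the reporter-positive group, 3.65 and 0.821 TPM in the CD44+ group and 17.5 and 0.850 TPM after transfer. In the CD44+ group Lgr6 was detected in 1 of 5 and 2 of 9 cells, so its mean there rests on 1 Cd74-positive cell. G2/M genes were at least 2-fold lower in 20 of 22 cases among reporter-positive and in 22 of 22 among CD44+ cells, while 8 of 22 were higher and 0 lower after transfer. Differences between the groups in these values were not tested, since each group is 1 sample.

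**Figure D5:**
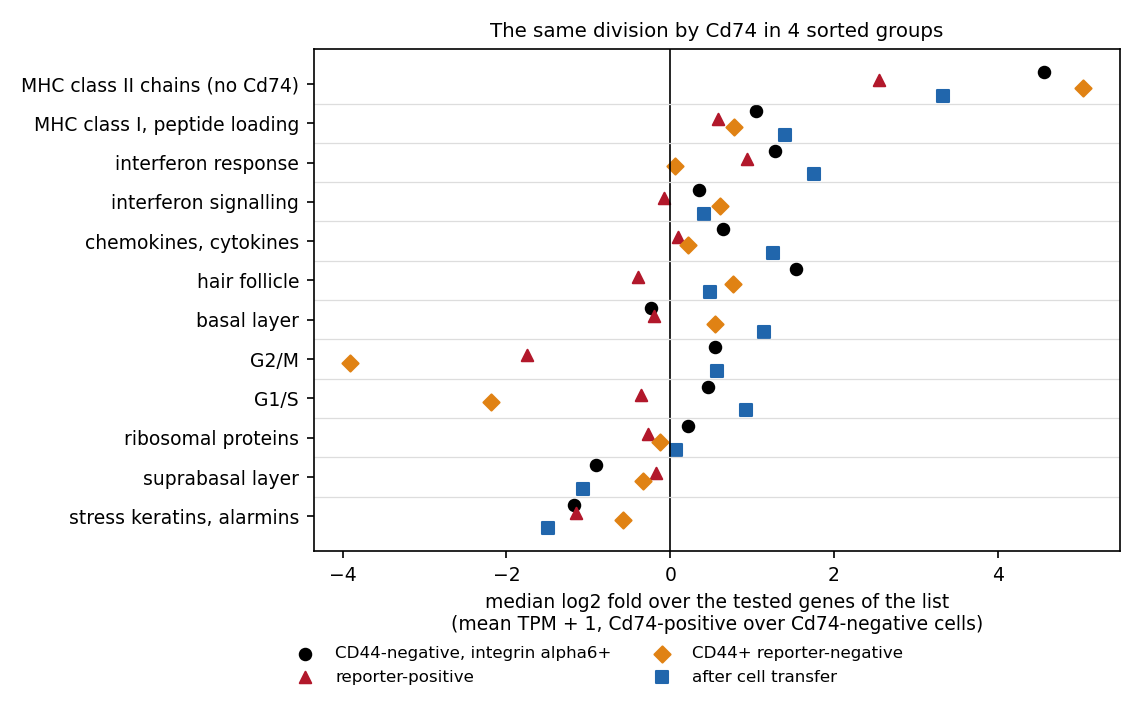
Median log2 fold (mean TPM + 1, Cd74-positive over Cd74-negative cells) for 12 gene lists in the CD44-negative gate (13 and 67 cells), the reporter-positive group (8 and 80), the CD44+ reporter-negative group (5 and 9) and after cell transfer (7 Cd74-positive cells). Class II chains lie between 2.55 and 5.04 in all 4, while G2/M genes run from -3.91 to 0.57.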

How the data were processed

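Single cells were sorted into 96-well plates and sequenced as Smart-seq2 and Nextera XT libraries, per the labels' protocols. The authors deposited TPM per gene and library, made with RSEM 1.2.30 and Bowtie2 2.2.9 on the build mm10, per the submitters' processing notes. How reads that map to several places were handled is not stated, and these libraries mark no strand, so near-identical copies and overlapping or antisense genes cannot be told apart. The table holds 46517 gene rows and 92 spike-in rows; 46003 gene IDs matched GENCODE M21. TPM gives no read depth.

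From these values means, medians, shares of cells at a TPM of at least 1 with exact (Clopper-Pearson) 95% intervals, and log2 folds of mean TPM with a pseudocount of 1 were computed with Python 3.11.15, pandas 2.3.3, numpy 2.4.6 and scipy 1.17.1, for genes with a mean of at least 1 TPM in either set. Intervals and floors cover counting error only. The fold calculation was tested on simulated data. No library of the gate repeated another one in a search by correlation, which found 245 pairs elsewhere.

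The cells, the 23 gene lists and the alternatives were chosen with earlier results of these data known. Named genes are all class II chains and regulators, up to 4 genes of each other list (largest log2 fold at a mean of at least 10 TPM) and the 15 highest and 15 lowest genes over the table. Of the 17 alternatives, 3 were added after the values had been seen.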

Additional observations from a re-analysis of the deposited data

Results flagged for a closer look

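Among the 11 cells left out for a Cd74 level of 1 to under 10 TPM, H2-Ab1 was detected in 6 (54.5%, exact 95% interval 23.4 to 83.2) and H2-Eb1 in 4 (36.4%, 10.9 to 69.2). Both shares lie above the upper bound of the Cd74-negative cells, of which 16.4% (8.49 to 27.5) and 8.96% (3.36 to 18.5) had these transcripts. The intervals of these cells and of the Cd74-negative cells overlap for both genes. H2-Aa was detected in 1 of the 11 (9.09%, 0.230 to 41.3), within the interval of the Cd74-negative cells (5.97%, 1.65 to 14.6). The H2-Ab1 and H2-Eb1 shares drew attention as class II signal in cells outside the comparison. The highest was well E1, with 78.03 TPM of H2-Ab1 at a Cd74 of 9.30 TPM.

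The median log2 fold of the G2/M list was -2.72 among cells with Xist and 1.59 among cells with Y-linked transcripts, opposite directions in the 2 blocks of plate rows. The difference was not tested.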

How the results depend on the processing

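Over 17 alternatives, 1788 of 2278 values stayed within 1.5-fold of the main value, 460 moved and 30 turned sign. The 1788 include every value from requiring Cd74 listed at 0 or no Ptprc. Both of these settings kept the same cells, so they could not move a value. The share of genes at least 2-fold higher (11.2%) was 17.1% and 1.31% with pseudocounts of 0.1 and 10 TPM, 6.78% with no filter, 3.60% on mean log2 values, 17.2% in Xist cells and 3.73% without the highest cell of each set. The share lower (8.99%) was 0.627% with 10 TPM, 5.44% with no filter, 4.76% on mean log2 values, 17.4% after rescaling without spike-in and ribosomal rows, 14.3% with Cd74 of at least 30 TPM, 21.03% in Xist cells and 14.6% without the highest cells. The class II median (4.57) was 5.16 and 2.33 with pseudocounts of 0.1 and 10 TPM, 3.96 with no filter, 3.02 on mean log2 values, 3.30 with 6000 to 8000 genes per library, 5.84 in Xist and 2.86 in Y-linked cells, 3.06 without the 3 cells highest in Cd74 and 3.23 without row A. The interferon median (1.28) was 0.52 with 10 TPM and 0.47 for sets by H2-Ab1. The suprabasal median (-0.91) was -0.32 with 10 TPM, -1.49 for sets by H2-Ab1, -2.03 in Xist and 0.085 in Y-linked cells, and -1.74 with Krt10 under 100 TPM. That last setting chose cells by a suprabasal gene, so it is no separate check of this median. The class I and basal medians did not move. The cause was not tested.

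Signs turned for Krt10 (-0.39 on mean log2 values, -5.25 in Xist cells, -2.71 with Krt10 under 100 TPM). The last of these settings chose cells by Krt10 itself and left out the Cd74-positive cells that hold its mean. It is therefore no separate check of Krt10. With 6000 to 8000 genes, Cd74 of at least 30 TPM, Xist cells and no highest cells, signs turned for Cxcl9 (-0.77, -0.35, -0.61, -0.019), Cxcl10 (-0.48, -0.40, -0.45, -0.21) and Tgtp1 (-0.95, -0.81, -0.29, -0.47). Sets by H2-Ab1 gave -2.57 for Cxcl10, -0.37 for Tgtp1, 0.53 for Col7a1, 0.032 for Thbs1, -2.60 for Defb6 and -0.63 for Krt79. In Xist cells Bgn was -0.61, and in Y-linked cells Slc16a3 was 0.13, Postn -0.33, Ung -0.27, Mmp13 1.68, Krt79 -3.37 and Lgals1 0.29. Without row A the follicle list was -0.082 and Krt79 -2.53. Requiring 4000 genes left 65 Cd74-negative cells and moved 0 values. Requiring Cd74 listed at 0, or no Ptprc, kept the same 13 and 67 cells. Those settings could not move a value and tested nothing. With 13 Cd74-positive cells on 1 plate, 1 cell can set a mean, as in well F5, and position, sex and animal cannot be told apart.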
